A study of Mus musculus with 4 samples.

Results

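Proton-coupled peptide transporters of the SLC15 family were followed in mouse brain at embryonic day 13. The members were the genes named Slc15a2, Slc15a3 and Slc15a4 in both deposited expression tables, 3 genes of the 19500 that both tables list. Slc15a1 and Slc15a5 were not analysed here. Slc15a2 was selected on its difference in counts between the genotypes in these same libraries, and its relatives were then taken by name. The genotype differences of the 3 members are therefore given as descriptions without a test.

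The study asked how Wt1, which encodes a zinc finger transcription factor, acts on neural progenitors of the developing brain. Whole-brain poly(A) RNA from C57BL/6 mice was sequenced for 2 control samples, Wt1fl/fl, which carry floxed Wt1 alleles and are also called WT, and 2 conditional knockout samples, Wt1CKO. The Cre driver, the number of animals behind a sample and whether the 2 samples of a genotype came from separate animals are not given in the labels. Spread and p-values thus describe these samples. The 2 Wt1fl/fl samples may differ only technically. The 2 Wt1CKO samples had 4 and 16472 counts of Xist, the RNA of the inactive X chromosome, so they are not technical repeats of 1 sample. The row of Wt1 was not analysed here, so the deletion was not checked. Each table sets 1 Wt1CKO library beside the Wt1fl/fl library of the same number, called pair 1 and pair 2 below.

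SLC15 proteins move dipeptides and tripeptides across a membrane together with protons, so the inward or luminal proton gradient drives uptake. Slc15a2 encodes PEPT2, a high-affinity carrier of the plasma membrane. It is best known from kidney tubule, choroid plexus epithelium and glia, where it clears small peptides from the surrounding fluid. Slc15a4 (PHT1) and Slc15a3 (PHT2) also carry histidine. They sit on endolysosomal membranes, where they release peptides and fragments of bacterial cell wall into the cytosol, and SLC15A4 also serves as a platform for interferon signalling.

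Library totals ranged from 16219310 to 17704698 listed counts. Levels are CPM, the counts relative to the scaled library total, and differences are log2 fold changes of Wt1CKO over Wt1fl/fl after adding a prior count of 2. Regional brain markers, 8 of 11 of them listed, summed to 1089 to 1458 CPM in Wt1fl/fl and 1160 to 1536 CPM in Wt1CKO. These sums are carried by abundant genes and hide members that differed. Tcf7l2, a Wnt pathway factor of the thalamus, was at 65.0 and 43.8 CPM in Wt1fl/fl 1 and 2 and at 18.4 and 23.5 CPM in Wt1CKO 1 and 2, a log2 fold change of -1.35 without overlap. Dlx2 and Otx2 had log2 fold changes of -0.30 and -0.44, with overlap. Neurod6, Lhx2, Emx1 and Emx2 went the other way, at 0.30, 0.21, 0.26 and 0.18, with overlap except for Emx2. Of the 8 regional markers, 4 were higher in Wt1CKO in both pairs and 3 lower, against 27% and 25.9% of all tested genes. The part of regional makeup in the Slc15a2 difference was not tested. Radial glia markers summed to 3294 and 3448 CPM in Wt1fl/fl 1 and 2, and to 3381 and 3637 CPM in Wt1CKO 1 and 2. Library Wt1CKO 1 stood apart in Xist, the RNA of the inactive X chromosome, with 4 counts against 13086 to 16472 in the other libraries. Over all 15933 genes tested, edgeR's quasi-likelihood test called 1 gene at an adjusted p under 0.05, which is 0.00628%, and it was lower in Wt1CKO. DESeq2 called 5 genes, 0.0314%, and in edgeR an unadjusted p under 0.05 was reached by 249 genes, 1.56%.

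Slc15a2 was the member with the large difference between the genotypes. This gene (ENSMUSG00000022899) lies on chr16:36750178-36784962 of GRCm38, on the minus strand. It was counted at 431 and 291 in Wt1fl/fl 1 and 2 and at 1083 and 837 in Wt1CKO 1 and 2. These counts gave levels of 26.8 and 17.0 CPM in the controls and 60.9 and 48.6 CPM in the knockouts. Both Wt1CKO libraries lay above both Wt1fl/fl libraries, and the lower knockout level was still well above the higher control level.

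The mean Slc15a2 level was 21.9 CPM ± 6.95 (SD, n = 2) in Wt1fl/fl and 54.7 CPM ± 8.68 (SD, n = 2) in Wt1CKO, a ratio of 2.50. The log2 fold change was 1.34 with a standard error of 0.37, and it was 1.18 in pair 1 and 1.51 in pair 2. A log2 difference of at least 1 in both pairs was shared by 17 genes, 0.107% of those tested, which is the contrast that singled out Slc15a2. By log2 fold change Slc15a2 ranked 19 among all tested genes and 2 among the 10140 genes that averaged 10 CPM or more. Leaving out any 1 library gave log2 fold changes between 1.02 and 1.67.

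Slc15a2 also varied within each genotype. The first library was higher than the second in both, by a ratio of 1.58 in Wt1fl/fl and 1.25 in Wt1CKO. Exact Poisson intervals at 95%, which cover counting error only, ran from 24.4 to 29.5 CPM in Wt1fl/fl 1 and from 15.1 to 19.1 CPM in Wt1fl/fl 2. They ran from 57.3 to 64.6 CPM in Wt1CKO 1 and from 45.4 to 52.0 CPM in Wt1CKO 2. None of the 4 intervals overlapped another, so the difference between the control libraries exceeded counting error as well. In the authors' deposited tables the Slc15a2 ratio was 2.30 in pair 1 and 2.88 in pair 2, and both tables mark the gene as higher. That mark was given in both tables to 10 genes, 0.0513% of those listed in both.

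Slc15a4 differed by a small amount. The gene (ENSMUSG00000029416) lies on chr5:127595664-127632897, on the minus strand, and had 212 and 239 counts in Wt1fl/fl 1 and 2 and 288 and 310 counts in Wt1CKO 1 and 2. Its levels were 13.2 and 14.0 CPM in the controls and 16.2 and 18.0 CPM in the knockouts. The groups did not overlap, with means of 13.6 CPM ± 0.542 (SD, n = 2) and 17.1 CPM ± 1.28 (SD, n = 2) and a ratio of 1.26. The log2 fold change was 0.33 with a standard error of 0.09, and the pairs gave 0.29 and 0.36.

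Counting error limits what Slc15a4 shows. The interval of Wt1fl/fl 2 reached up to 15.9 CPM and that of Wt1CKO 1 reached down to 14.4 CPM, so neighbouring libraries of different genotype were within counting error of each other. Its rank by log2 fold change was 162 in that set of 10140, against 2 for Slc15a2. The authors' deposited tables give Slc15a4 ratios of 1.24 and 1.30, with no mark. Groups that did not overlap and were higher in Wt1CKO were found for 2 of the 3 members and for 13.4% of all tested genes.

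Slc15a3 was near the limit of detection. The gene (ENSMUSG00000024737) lies on chr19:10839727-10859362, on the plus strand, with 20 and 9 counts in Wt1fl/fl 1 and 2 and 20 and 4 counts in Wt1CKO 1 and 2. The levels were 1.25 and 0.526 CPM in the controls and 1.12 and 0.232 CPM in the knockouts, and the genotypes overlapped. The mean was 0.886 CPM ± 0.509 (SD, n = 2) in Wt1fl/fl and 0.678 CPM ± 0.631 (SD, n = 2) in Wt1CKO. The log2 fold change of -0.51 had a standard error of 1.06, and it turned to 0.03 without Wt1fl/fl 1 and to 0.41 without Wt1CKO 2.

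The Slc15a3 levels differed by sample number in both genotypes, but within counting error in Wt1fl/fl. Library 1 exceeded library 2 by a ratio of 2.37 in Wt1fl/fl and 4.84 in Wt1CKO. The exact Poisson intervals of Wt1fl/fl 1 and 2 overlapped, at 0.761 to 1.92 CPM and 0.241 to 0.998 CPM. Those of Wt1CKO 1 and 2 did not, at 0.687 to 1.74 CPM and 0.0633 to 0.595 CPM. Red cell markers split by the same number in the other direction, with sums of 968 and 913 CPM in the first libraries and 1838 and 1779 CPM in the second ones, and their part in the result was not tested. Slc15a3 also overlaps Tmem132a, a membrane protein gene on the opposite strand, over 1541 exonic bases. Tmem132a was at 171 CPM ± 13.9 (SD, n = 2) in Wt1fl/fl and 159 CPM ± 3.26 (SD, n = 2) in Wt1CKO. The labels do not say whether reads kept their strand, so the few Slc15a3 counts may not all belong to it. Slc15a4 overlaps its neighbour Glt1d1 over 636 bases, none of them exonic in both genes.

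**Figure D1:**
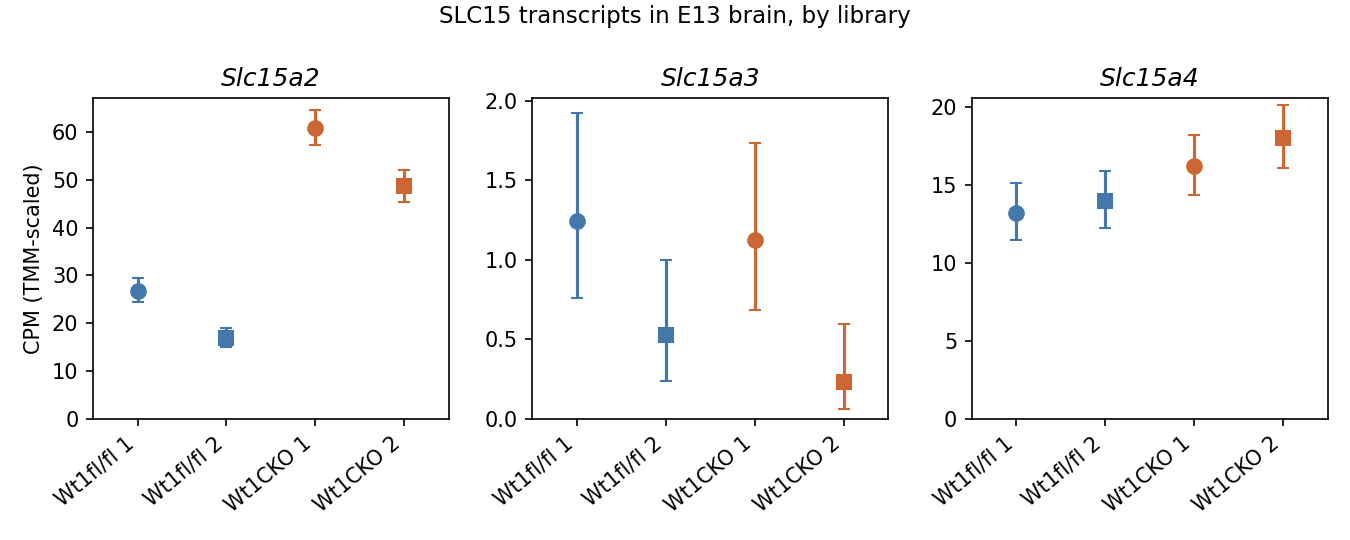
Level of each SLC15 member in CPM (each panel with its own axis from 0), with 1 point for each library and bars for its exact 95% Poisson interval, which covers counting error only. Slc15a2 and Slc15a4 have both Wt1CKO libraries above both Wt1fl/fl libraries, and the Slc15a3 libraries overlap at or below 1.25 CPM.

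Levels of different genes can be set side by side only per length. Per kilobase of the longest coding transcript (3994 bases for Slc15a2, 2732 for Slc15a4 and 2345 for Slc15a3), Slc15a2 was at 6.72 and 4.26 CPM per kilobase in Wt1fl/fl 1 and 2. Slc15a4 was at 4.83 and 5.11 CPM per kilobase in the same libraries. The order of the plasma membrane carrier and the lysosomal one thus differed between the control libraries, and their means of 5.49 ± 1.74 and 4.97 ± 0.198 CPM per kilobase (SD, n = 2) did not differ beyond their spread.

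In Wt1CKO, Slc15a2 was at 15.2 and 12.2 CPM per kilobase and Slc15a4 at 5.93 and 6.59, so the knockout libraries did not overlap in this order. The knockout means were 13.7 ± 2.17 CPM per kilobase for Slc15a2 and 6.26 ± 0.469 for Slc15a4 (SD, n = 2). Slc15a3 was lowest in every library, with means of 0.378 ± 0.217 CPM per kilobase in Wt1fl/fl and 0.289 ± 0.269 in Wt1CKO (SD, n = 2). Dividing by all exonic bases of each gene in place of 1 transcript gave Slc15a2 2.98 and Slc15a4 2.56 CPM per kilobase in Wt1fl/fl, and 7.44 and 3.22 in Wt1CKO. The order of the genotype means was the same with either length.

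**Figure D2:**
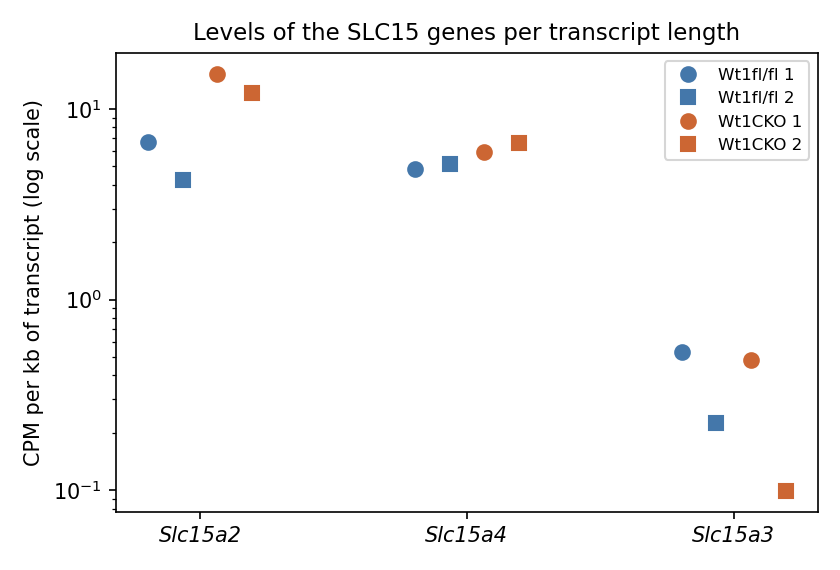
Level of the 3 members in CPM per kilobase of the longest coding transcript, on a logarithmic axis, with 1 point for each library. Slc15a2 and Slc15a4 interleave in the Wt1fl/fl libraries and separate in the Wt1CKO libraries, and Slc15a3 lies lowest throughout.

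The deposited annotation ties the members together by 1 protein domain, PTR2, the peptide transporter fold. It lists this domain for 5 genes in the pair 1 table and 4 in the pair 2 table. Besides the 3 members these were the antisense RNA Gm36696 and, in pair 1 only, the long noncoding RNA G730013B05Rik, which are not transporters and had at most 6 counts in a library. The same annotation places Slc15a2 at the plasma membrane and Slc15a3 and Slc15a4 at the lysosomal membrane.

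The sequences just before the starts of the members whose genotypes did not overlap are shown to set their base composition side by side. They are taken from the RefSeq promoter table on GRCm38.p6, read 5′ to 3′ on the minus strand, with each CpG in capitals. The first is the 250 bases of chr16:36784963-36785212, and the second the 224 bases of chr5:127617419-127617642 that lie outside annotated exons, within the span that the tables give for Slc15a4.
Slc15a2: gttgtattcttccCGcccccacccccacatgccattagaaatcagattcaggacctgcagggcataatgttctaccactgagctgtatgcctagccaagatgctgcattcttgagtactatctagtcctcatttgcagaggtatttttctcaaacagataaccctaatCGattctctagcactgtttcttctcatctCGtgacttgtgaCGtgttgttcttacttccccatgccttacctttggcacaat
Slc15a4: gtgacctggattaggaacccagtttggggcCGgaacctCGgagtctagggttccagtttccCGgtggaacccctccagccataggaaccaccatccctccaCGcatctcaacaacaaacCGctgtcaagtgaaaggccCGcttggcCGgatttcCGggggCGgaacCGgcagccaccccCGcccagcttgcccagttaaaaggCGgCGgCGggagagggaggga

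The upstream sequence of Slc15a2 held fewer CpG than the median promoter and that of Slc15a4 more. The Slc15a2 window held 45.2% G and C and 4 CpG. Of the 32851 RefSeq promoters, 24.5% had a lower share of G and C and 37.8% had fewer CpG. The Slc15a4 window of 250 bases held 62.8% G and C and 17 CpG, and 78.3% of promoters had a lower share and 76.5% fewer CpG. The median promoter held 52.4% G and C and 6 CpG.

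Short motifs were searched by exact letters on both strands of the same windows. A WT1 element, GCGTGGGAG, occurs in 0.405% of promoters and was in neither window, and the overlapping EGR-type letters GCGGGGGCG occur in 2.57% and were in neither. The GC box GGGCGG, found in 32.7% of promoters, occurred 1 time at Slc15a2 and 2 times at Slc15a4. CCAAT (33.8% of promoters) and TATAAA (12.4%) were in neither window. These are letter matches only and carry no measure of binding.

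Genes beside Slc15a2 on its chromosome were chosen by position. Slc15a2 was selected on this contrast, so smaller log2 fold changes beside it were largely given in advance. Within 500 kb of Slc15a2, 8 genes were listed in both tables and 6 were tested, and their log2 fold changes ran from -0.50 to 0.22. Polq, a DNA polymerase of end joining, was at 20.2 CPM ± 0.673 (SD, n = 2) in Wt1fl/fl and 23.5 CPM ± 1.60 in Wt1CKO, a log2 fold change of 0.22. Iqcb1, a ciliary protein gene that lies 43.4 kb from Slc15a2, went from 43.3 CPM ± 1.82 to 47.4 CPM ± 0.808, a log2 fold change of 0.13. In these 2 of the 6 tested neighbours the knockout libraries lay above the control libraries, against 13.4% of all tested genes. In 1, Stxbp5l, which was named after its values were seen, they lay below, against 13.5% of all tested genes, with a log2 fold change of -0.50 and means of 0.868 CPM and 0.570 CPM.

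The nearest gene to Slc15a2 was Eaf2, an elongation factor partner that lies 7.92 kb away. It had only 12 and 20 counts in Wt1fl/fl and 13 and 13 in Wt1CKO, with a log2 fold change of -0.29. Golgb1, a large Golgi protein gene, had a log2 fold change of 0.06, and Hcls1, a blood cell cytoskeletal gene under 2 CPM in both genotype means, had -0.0046. Around Slc15a3 the log2 fold changes of 16 tested genes ran from -0.85 to 0.30, with Vps37c at 0.02 and Tmem132a at -0.11 as the nearest on either side. Around Slc15a4 those of 3 tested genes ran from -0.52 to 0.01, with Tmem132c at -0.17 and Glt1d1 at 0.01. Of all these neighbours, edgeR called 0, DESeq2 also called 0, and 0 reached an unadjusted p under 0.05 in edgeR.

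**Figure D3:**
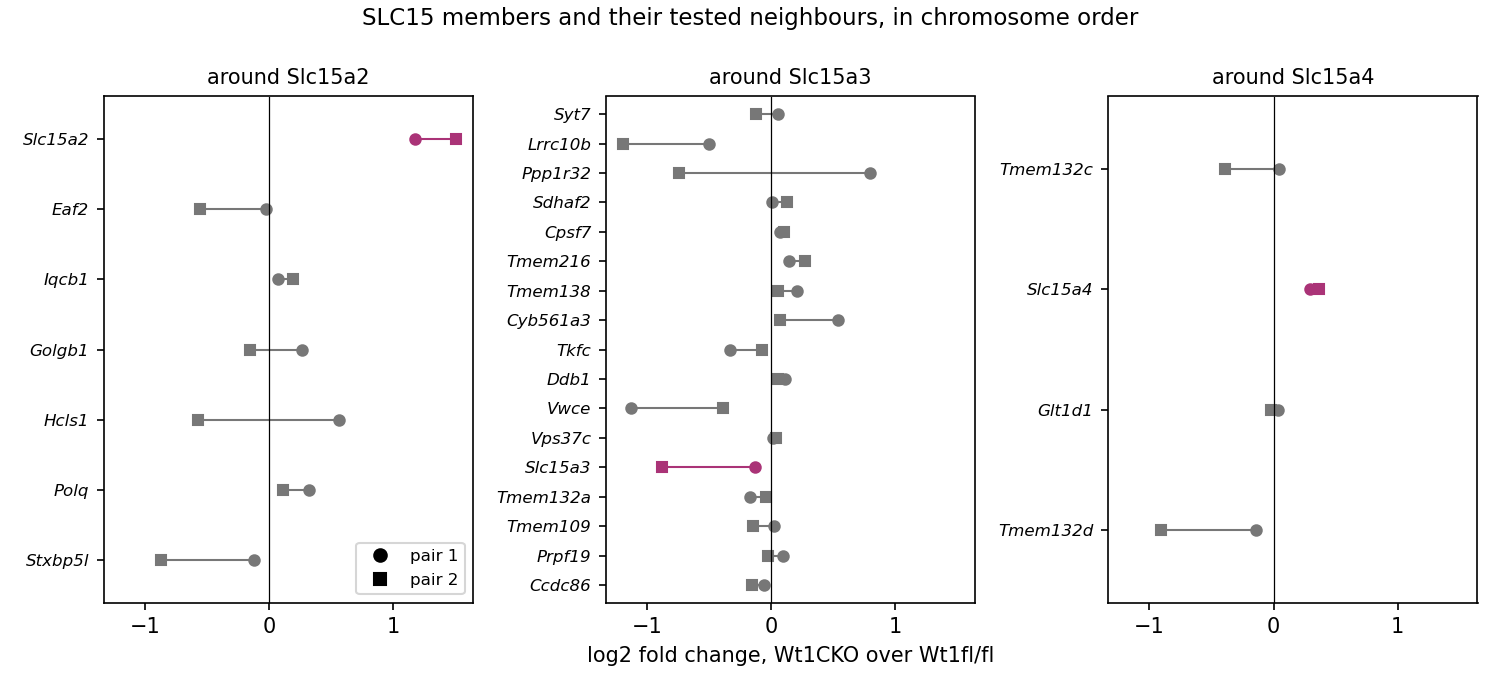
Log2 fold change of Wt1CKO over Wt1fl/fl for each member (colour) and the tested genes within 500 kb of it (grey), in chromosome order from top to bottom, with a circle for pair 1 and a square for pair 2. Slc15a2 is at 1.18 and 1.51. The pair values of its tested neighbours run from -0.87 (Stxbp5l, pair 2) to 0.56 (Hcls1, pair 1).

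The wider machinery of peptide transport was read from 7 lists, with 116 genes in both tables and 109 tested. Some genes were entered under alternative names, so the list sizes below count names. EdgeR called 0 of the 109, DESeq2 called 0, and 3 (Atp1b1, Atp6v1g2 and Irf5) reached an unadjusted p under 0.05 in edgeR. For each tested list gene named below edgeR's adjusted p was 1.0. The median log2 fold change of the list genes was -0.01, against 0.01 for all tested genes. Of the list genes 24.8% were higher in Wt1CKO in both pairs and 33.9% lower, against 27% and 25.9% of all tested genes.

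PEPT2 at the cell surface depends on proteins that supply protons and hold it in place. Of that list 11 of 14 genes were tested, with 0 called, 5 higher and 4 lower in both pairs and a median log2 fold change of 0.01. Among the membrane carbonic anhydrases, which produce protons at the outer cell face, Car14 was at 7.90 CPM ± 1.51 (SD, n = 2) in Wt1fl/fl and 12.3 CPM ± 3.88 in Wt1CKO, a log2 fold change of 0.60. Car12 was at 1.5 CPM ± 0.274 and 2.49 CPM ± 0.0168, a log2 fold change of 0.70, while Car4 had -0.0016. Atp1b1, a subunit of the sodium pump, was at 42.0 CPM ± 2.30 and 31.8 CPM ± 3.07, a log2 fold change of -0.40, and the bicarbonate cotransporter gene Slc4a4 had -0.13. In 3 of the 11 tested genes of this list (Car14, Car12 and Atp1b1) the genotypes did not overlap, 2 higher and 1 lower in Wt1CKO, against 13.4% higher and 13.5% lower of all tested genes, and none passed the test.

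Peptidases on either side of the membrane make the substrates of PEPT2 or break them down after uptake. Of the surface and secreted peptidases 13 of 22 were tested, with 0 called and a median log2 fold change of -0.04. Lnpep, an aminopeptidase of vesicles and the cell surface, had a log2 fold change of 0.55, while the secreted Cpq had -0.63. Ece2, an endopeptidase, had 0.25 and Dpp6, a catalytically inactive relative that binds potassium channels, had -0.29. These 4 values lay on both sides of 0.

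Of the list drawn up around peptide breakdown inside the cell 19 of 22 were tested, with 0 called and a median log2 fold change of -0.0022. The dipeptidase gene Pm20d2 had a log2 fold change of 0.55 at means of 0.929 CPM and 1.40 CPM. Dpp8 had 0.17, the leucine aminopeptidase gene Lap3 had 0.13 and the neurolysin gene Nln had -0.17. Of the glutathione cycle, which yields the dipeptide cysteinylglycine, 17 of 18 were tested with 0 called and a median of -0.06. The extracellular transferase gene Ggt5 had 0.52, the reductase gene Gsr had 0.30, the exporter gene Abcc1 had 0.26 and the heavy chain gene Slc3a2 had -0.14.

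Slc15a3 and Slc15a4 work beside other lysosomal exporters. Of these 17 of 18 were tested, with 0 called, 5 higher and 6 lower in both pairs and a median log2 fold change of -0.0031. The lysosomal membrane genes Lamp2 and Glmp had 0.17 and -0.24, and the amino acid carrier genes Slc36a4 and Pqlc2 had 0.11 and -0.23. The proton pump that drives them, the V-ATPase, had 19 of 20 genes tested, with 0 called, 3 higher and 7 lower in both pairs and a median of -0.04. Its lowest value belonged to Atp6v1g2, the neuronal G subunit, at 31.7 CPM ± 3.74 (SD, n = 2) in Wt1fl/fl and 23.7 CPM ± 0.384 in Wt1CKO, a log2 fold change of -0.41. The pump subunits Atp6v0d1, Atp6v1f and Atp6v0a1 had -0.17, -0.14 and -0.13.

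The innate sensing genes that SLC15A3 and SLC15A4 feed had 13 of 20 members tested, with 0 called, 3 higher and 3 lower in both pairs and a median log2 fold change of 0.02. The adaptor gene Tirap had -0.39, the kinase gene Ripk2 had -0.23, the scaffold gene Lamtor1 had -0.13 and the receptor chaperone gene Unc93b1 had 0.18. Irf5, the transcription factor downstream of SLC15A4, was named only after its values were seen. It had 5 and 6 counts in Wt1fl/fl and 22 and 13 in Wt1CKO, and a log2 fold change of 1.28. The groups did not overlap, both means stayed below 1 CPM, and edgeR's adjusted p was 1.0.

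**Figure D4:**
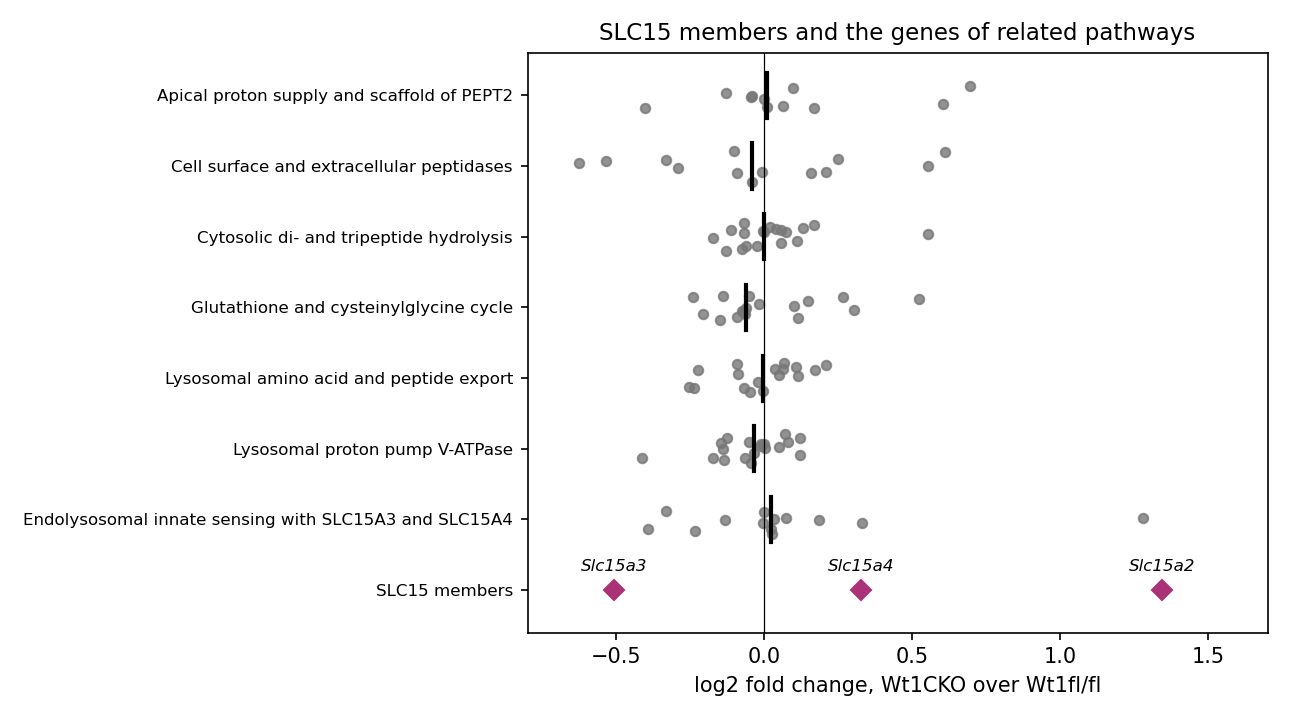
Log2 fold change of Wt1CKO over Wt1fl/fl for the tested genes of 7 lists around peptide transport (grey points, spread vertically for clarity), with a black bar at each list's median, and for the 3 members (diamonds). The list medians lie between -0.06 and 0.02, and the point at 1.28 is Irf5.

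Markers of the cell types that hold PEPT2 or the lysosomal carriers were read beside the members. In whole brain, fewer cells of a type and less RNA per cell cannot be told apart. Choroid plexus markers, 12 of 13 of them listed, summed to 44.5 and 76.4 CPM in Wt1fl/fl 1 and 2 and to 88.1 and 43.8 CPM in Wt1CKO 1 and 2. Otx2, also a regional marker, and Rspo3 had the highest mean levels of this list, 23.4 and 15.3 CPM. In Wt1fl/fl 1 they were at 22.4 and 16.6 CPM and carried most of the sum. Ttr, the transthyretin of choroid plexus epithelium, followed with a mean of 13.5 CPM. It had 4 and 213 counts in Wt1fl/fl 1 and 2 and 717 and 17 in Wt1CKO 1 and 2, more uneven than the sums. Slc4a5 was at 0 counts in Wt1CKO 2. The sums overlapped between the genotypes, and the part of choroid plexus RNA in the Slc15a2 difference was not tested.

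Radial glia markers, all 15 of 15 listed, had summed levels, given above, that overlapped between the genotypes. Of the 15, 5 were higher in Wt1CKO in both pairs and 1 lower, against 27% and 25.9% of all tested genes. Vim and Nes, which had the highest mean levels of the list, had log2 fold changes of 0.03 and 0.11. Sox2, the marker that was lower in both pairs, had -0.16. Gli3, named after its values were seen, was at 78.0 CPM ± 1.84 (SD, n = 2) in Wt1fl/fl. In Wt1CKO it was at 98.7 CPM ± 2.31, a log2 fold change of 0.34. The part of radial glia RNA in the Slc15a2 difference was not tested. Neuron markers, 9 of 9 listed, summed to 6463 and 5895 CPM in Wt1fl/fl and 6093 and 5444 CPM in Wt1CKO. Meningeal markers, 9 of 10 listed, summed to 38.9 and 72.2 CPM in Wt1fl/fl and 38.7 and 38.2 CPM in Wt1CKO. Endothelial markers, 8 of 8 listed, summed to 126 and 143 CPM and to 119 and 129 CPM, and epithelial ones, 4 of 7 listed, to at most 4.79 CPM in any library.

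Markers of microglia and macrophages, cells in which Slc15a3 and Slc15a4 are known to be active, had 18 of 18 listed. They summed to 69.2 and 63.9 CPM in Wt1fl/fl and to 69.1 and 56.7 CPM in Wt1CKO, so the genotypes overlapped. Of the 81 tested genes of the 9 marker lists, edgeR called 0, 3 (Col1a1, Gli3 and Tcf7l2) reached an unadjusted p under 0.05, and DESeq2 called 1, Tcf7l2. The part of the Xist difference of Wt1CKO 1 in the Slc15a2 values was not tested either.

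The genes whose levels across the 4 libraries were nearest to those of Slc15a2 were sought among 11506 genes averaging 5 CPM or more. Likeness was the Euclidean distance between log2 levels centred on each gene's mean, and the Slc15a2 profile itself has a length of 1.44 on this scale. The nearest was Fut10, a glycosyltransferase gene, at a distance of 0.63 and with a log2 fold change of 0.92. Cav1, the main coat protein of caveolae, followed at 0.67, Tbc1d4, a regulator of glucose transporter traffic, at 0.73 and Hddc3 at 0.73. Gm8281, Car14, the pseudogene Gm12346, Rbm20, Trmt61b and Tnfrsf19 completed the 10, at distances up to 0.81.

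In 7 of the 10 genes the genotypes did not overlap and Wt1CKO was higher, as in 13.4% of all tested genes, but likeness to a profile without overlap chose them. Of the 10, 9 were highest in Wt1CKO 1 and 8 were lowest in Wt1fl/fl 2. The log2 fold changes of the 10 ran from 0.54 to 1.08, against 1.34 for Slc15a2, which was selected on this contrast. Pearson correlations with Slc15a2 over the 4 libraries were 0.90 for Fut10, 0.89 for Cav1 and 0.97 for Tbc1d4. The likeness chose these genes, so their values are descriptions, and with a minimum of 1 CPM in place of 5 the nearest 10 genes shared 0 with this set.

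**Figure D5:**
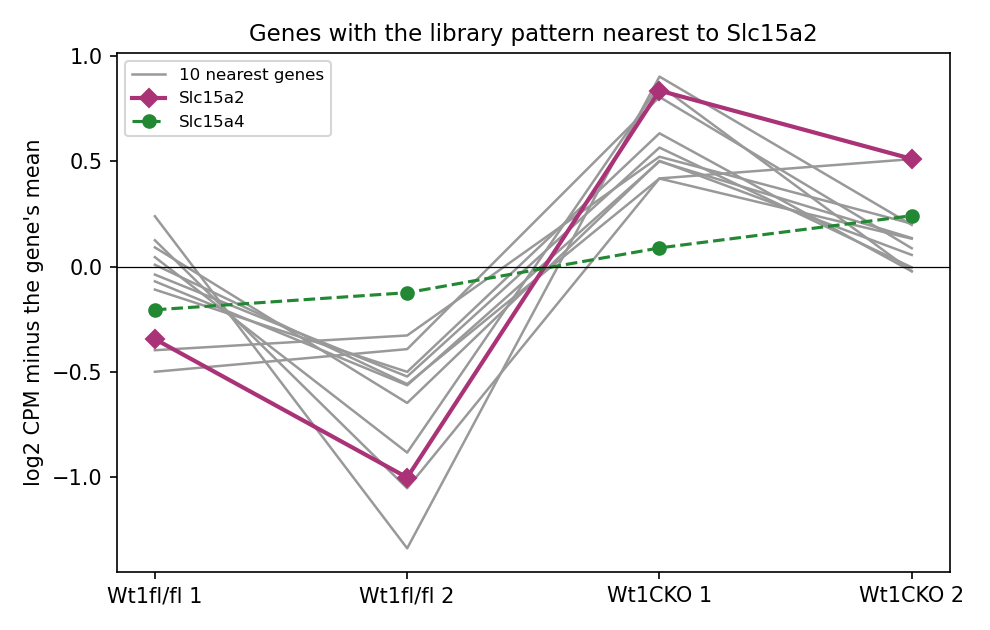
Log2 CPM minus the gene's own mean in each of the 4 libraries for Slc15a2 (diamonds), Slc15a4 (circles) and the 10 genes nearest to Slc15a2 (grey), with lines joining the values of a gene across unordered libraries. Slc15a2, which was selected on this contrast, has a log2 fold change of 1.34, and the 10 nearest genes have 0.54 to 1.08.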

How the data were processed

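Poly(A) RNA of 4 mouse brain samples was read from 2 tables deposited by the authors. Per the file headers they hold counts per Ensembl gene for 2 libraries each, with the authors' CPM, ratio, log2 and p-value columns. Bowtie2 2.2.3, TopHat2 2.0.12, HTSeq 0.6.0 and the build mm9 are named in the submitters' processing notes, without roles, while the positions in the tables match GENCODE vM21 on GRCm38. From the counts, edgeR 4.0.16 (R 4.3.3) fitted the quasi-likelihood test over 15933 genes after TMM scaling and a minimum count of 10, with Benjamini-Hochberg adjustment at 0.05. CPM use the TMM-scaled library. Standard errors come from the spread of log2 CPM within genotypes. Alternatives were DESeq2 1.42.0, other scalings, filters and prior counts, the replicate block, and each library left out. The members and all gene lists were chosen with earlier results of these data known, so they are not independent of them.

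Named genes were the members, up to 4 genes of each of the 7 pathway lists by smallest unadjusted p with a mean of at least 1 CPM, tested protein-coding neighbours within 250 kb of Slc15a2, the nearest tested genes beside Slc15a3 and Slc15a4, the 10 genes nearest to the Slc15a2 profile, leading markers, and markers at 0. Irf5, Stxbp5l, Car4, Tcf7l2, Otx2, Dlx2, Emx1, Emx2, Col1a1, Gli3 and Sox2 were added after their values were seen. The 9 marker lists cover brain regions, radial glia, neurons, choroid plexus, microglia and macrophages, endothelium, meninges, epithelium and red cells, and 1 regional marker is not reported here. The edgeR fit was also run on simulated counts for Wt1CKO against Wt1fl/fl, with 15632 genes tested. It found 53.6% of the 97 genes given a log2 change of 1 and 89.9% of the 99 given a log2 change of 2. It also made 4 false calls. Whether these shares hold for the deposited counts was not tested. In the deposited counts 17 genes had a log2 fold change of at least 1 in both pairs, and edgeR called 0 genes higher in Wt1CKO.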

Additional observations from a re-analysis of the deposited data

How the results depend on the processing

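With 2 libraries in each genotype the count of called genes depends on the setting. Leaving out 1 of 2 libraries moves a log2 fold change by a fixed part of the gap between them. The members' ranges below therefore restate that gap and are no measure of stability. The 1 gene called over all genes became 5 with DESeq2 and 42 with the replicate block. It became 73 without Wt1fl/fl 1, 29 without Wt1fl/fl 2, 3 without Wt1CKO 1 and 7 without Wt1CKO 2, fits in which the lone library is assumed to vary like the other genotype; the cause was not tested. The sample numbers were not taken to pair libraries, since the labels tie nothing to them, although the authors set same-numbered libraries side by side. The deviations of same-numbered libraries from their genotype means correlated at 0.28 across 15933 genes, which are not independent. Among genes averaging 10 CPM or more this correlation was 0.40, and its cause was not tested. In each setting run, 0 genes of the pathway lists and 0 neighbours were called.

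Slc15a2 stayed between 1.02 and 1.67 and Slc15a4 between 0.25 and 0.40 (log2) with any 1 library left out, and Slc15a3 ran from -1.42 to 0.41 and had no value with a minimum of 1 CPM. The nearest genes to Slc15a2 shared 0 of 10 with that minimum. Of 383 alternative values for 43 named genes, 15 turned sign. With DESeq2 Hcls1 had 0.024 and Car4 0.0027. Tcf7l2 was called with DESeq2, with the replicate block, without Wt1fl/fl 1 and without Wt1fl/fl 2, at log2 fold changes from -1.64 to -1.07, where the adjusted p over all its alternatives ran from 3.03e-05 to 1.0. With 1 library left out the log2 fold change ran from -0.29 to 0.019 for Lamtor1, from -0.082 to 0.20 for Golgb1, from -0.36 to 0.35 for Hcls1, from -0.067 to 0.11 for Vps37c, from -0.35 to 0.0056 for Tmem132c, from -0.17 to 0.16 for Car4, from -0.65 to 0.048 for Dlx2 and from -0.28 to 0.30 for Glt1d1. The cause was not tested.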
